A study of Homo sapiens with 4 samples.

Results

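The genes described here are 35 that make cholesterol, control its synthesis, move and store it inside the cell, and export it. They were taken by gene symbol from the 57773 genes of the authors' deposited comparison of myeloma cells exposed to 1 µM OSSL_325096 with cells exposed to its solvent, DMSO. All 35 symbols were found, each in 1 row, and 33 of them had a group mean of at least 1 RPKM (reads scaled to transcript length and library size), the minimum used for every count below, which left 11324 genes. KMS12PE and KMS11 are established human myeloma lines, tumour cells of the plasma cell lineage. Each of the 4 libraries was 1 line under 1 treatment, so that OSSL_325096 and DMSO had 2 libraries each, 1 from KMS12PE and 1 from KMS11. The sources used here do not give the time of exposure, and the compound is known here by its code alone. The deposited values cover both lines together. Each gene has a level, the mean RPKM of the treatment in which it was higher (the group mean below), and 23130 genes, all 35 among them, also have a log2 fold change and a p-value. Values of the single libraries were not analysed here, and their depth is unknown. Nothing in the labels tells how many separate cultures stand behind a library, so the p-values measure the spread between these libraries only. Positive fold changes are read as a higher level with OSSL_325096, from the order of the treatments in the table's title. No column states this order, and every direction given here rests on it.

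Animal cells build cholesterol from acetyl-CoA. The mevalonate arm of the pathway gives farnesyl diphosphate, from which squalene and then lanosterol are made, and a further series of steps in the endoplasmic reticulum turns lanosterol into cholesterol. The transcription factor SREBP2 raises the genes of these enzymes when sterols in that membrane are low. SCAP escorts SREBP2 to the Golgi, where 2 proteases release its active part, and INSIG proteins hold SCAP back when sterols are plentiful. The nuclear receptors LXR alpha and LXR beta answer to oxysterols, the oxidised products of cholesterol, and raise the genes of pumps that export cholesterol.

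The plasma cell identity of the material was checked with genes of that lineage. All 9 plasma cell markers had a group mean of at least 1 RPKM in the authors' deposited table, between 6.26 and 189 RPKM, and so did all 4 genes used to recognise the lines, CCND1, FGFR3, MAF and WHSC1. None of the 4 T cell, 4 monocyte or 3 fibroblast markers reached 1 RPKM, and the highest of these 11 was at 0.130 RPKM in the authors' deposited table. Of the other markers, CR2 (mature B cell) was at 1.82 RPKM and EPCAM (epithelial) at 15.8 RPKM in the authors' deposited table. In bulk RNA, fewer cells expressing a gene and less of its RNA per cell cannot be told apart.

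Promoter sequences are shown first, for the members whose upstream region has the letters TCACNCCA, a form of the short element through which SREBP2 acts. The member with the largest fold change and the 2 lowest members without these letters are shown too. All are RefSeq sequences on GRCh38.p14, 250 bases ending just before the annotated start of transcription, written 5′ to 3′ along the gene. The search covered TCACNCCA, a form of the sterol regulatory element, CACNCCA, which lies within it, CCAAT, the box bound by the SREBP partner NF-Y, GGGCGG, the GC box bound by SP1, and CACGTG, an E-box, on both strands. Capitals mark CACNCCA and CCAAT, or their reverse complements. The promoter of MVK (mevalonate kinase) lies at chr12:109573544-109573793, plus strand, that of SREBF2 (the gene of SREBP2) at chr22:41832855-41833104, plus strand, and that of MSMO1 (a sterol C4 methyl oxidase) at chr4:165327419-165327668, plus strand. These 3 hold TCACNCCA, which starts 195, 133 and 156 bases before the start of transcription.
MVK: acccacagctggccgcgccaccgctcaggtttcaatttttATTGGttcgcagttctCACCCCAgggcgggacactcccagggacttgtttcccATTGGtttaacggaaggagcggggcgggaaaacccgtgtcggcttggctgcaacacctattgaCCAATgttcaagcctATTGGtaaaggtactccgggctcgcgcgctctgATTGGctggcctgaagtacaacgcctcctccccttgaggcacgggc
SREBF2: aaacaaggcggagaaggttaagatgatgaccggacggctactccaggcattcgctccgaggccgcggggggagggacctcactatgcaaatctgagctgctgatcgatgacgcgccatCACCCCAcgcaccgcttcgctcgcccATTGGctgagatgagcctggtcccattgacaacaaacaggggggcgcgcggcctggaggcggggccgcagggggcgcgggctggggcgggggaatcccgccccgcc
MSMO1: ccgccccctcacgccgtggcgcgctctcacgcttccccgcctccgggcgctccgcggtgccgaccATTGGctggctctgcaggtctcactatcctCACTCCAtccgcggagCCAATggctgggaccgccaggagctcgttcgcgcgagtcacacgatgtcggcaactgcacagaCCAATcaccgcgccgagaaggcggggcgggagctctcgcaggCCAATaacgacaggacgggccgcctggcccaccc
The promoter of MVD (mevalonate diphosphate decarboxylase) lies at chr16:88663092-88663341, minus strand. It was added after the values were seen, and holds CACNCCA on the opposite strand 48 bases before the start, with 3 CCAAT boxes.
MVD: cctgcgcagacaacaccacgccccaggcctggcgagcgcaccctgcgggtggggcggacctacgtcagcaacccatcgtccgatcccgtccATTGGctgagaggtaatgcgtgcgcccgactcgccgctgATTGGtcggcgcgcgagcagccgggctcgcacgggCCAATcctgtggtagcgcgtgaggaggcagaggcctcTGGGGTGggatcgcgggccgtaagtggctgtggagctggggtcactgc
INSIG2 (a retention protein of SCAP) at chr2:118088221-118088470, plus strand and ABCA1 (a cholesterol export pump) at chr9:104928156-104928405, minus strand had no TCACNCCA and no CCAAT box in this window, and ABCA1 had 1 CACNCCA.
INSIG2: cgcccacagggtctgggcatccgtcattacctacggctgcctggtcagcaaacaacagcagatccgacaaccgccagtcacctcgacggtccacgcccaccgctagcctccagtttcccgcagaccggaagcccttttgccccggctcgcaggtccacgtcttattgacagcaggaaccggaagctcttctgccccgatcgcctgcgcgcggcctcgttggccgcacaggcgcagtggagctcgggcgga
ABCA1: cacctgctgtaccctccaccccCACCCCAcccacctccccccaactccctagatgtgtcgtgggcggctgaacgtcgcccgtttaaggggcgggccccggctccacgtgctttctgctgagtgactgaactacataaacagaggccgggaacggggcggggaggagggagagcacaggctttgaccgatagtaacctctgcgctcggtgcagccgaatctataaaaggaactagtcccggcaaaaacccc

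Promoters were matched for 31 of the 35 members, the others being ACAT2, FDFT1, SQLE and ABCG1. TCACNCCA was found in 3 of the 31 (9.68%), against 3.92% of the 27305 genes with a promoter in the RefSeq table. CACNCCA was found in 13 (41.9%, against 17.4% of all genes). The CCAAT box was in 21 members (67.7%, against 36.997%), among them 14 of the 17 matched synthesis enzymes. The GC box was in 27 (87.1%, against 46.2%) and the E-box in 4 (12.9%, against 7.73%). The 27305 genes were not restricted to protein-coding genes or to those of at least 1 RPKM, while all 35 members were protein-coding. These shares thus come from unlike sets of genes, and the part of this in their differences was not tested. Genes with several promoters were counted once, if any of them held the motif. A match describes the letters of this window and is not a measured binding site.

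Of the 19 measured synthesis enzymes 18 had a log2 fold change above 0, that is, a higher level with OSSL_325096, while 3 of the 4 measured LXR and export genes were below 0. MVD, an enzyme of the mevalonate arm, had the largest value, and INSIG2 and ABCA1 had the lowest. Of the 33 members of at least 1 RPKM, 23 had a log2 fold change above 0, where 51% of all 11324 genes did. A difference of at least 1.5-fold higher was seen in 9 members, against 4.95% of all genes, and a difference of at least 1.5-fold lower in 0 members, against 4.95% of all genes. The median log2 fold change of the members was 0.18, and that of all genes 0.0087. No member passed a test of its own. By the authors' p-values with Benjamini-Hochberg adjustment over the 11324 genes, 0 of 33 members were under 0.05, as were 0% of all genes. At an unadjusted p under 0.05 there were 0 members and 5 genes in all (0.0442%), and the smallest p of a member was 0.249, that of MVD. The standard error implied by each p-value and fold change, had the test been a two-sided normal one, was between 0.87 and 1.82 on the log2 scale for these 33 genes. A member with their median implied SE of 1.02 would have reached an unadjusted p of 0.05 at a difference of 4.01-fold. The 2 libraries of each treatment came from different lines and the authors' test is not named, so differences between the lines may be part of these p-values and implied SEs. Their part was not tested. What follows describes the order of the members' values, under errors of this size.

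**Figure D1:**
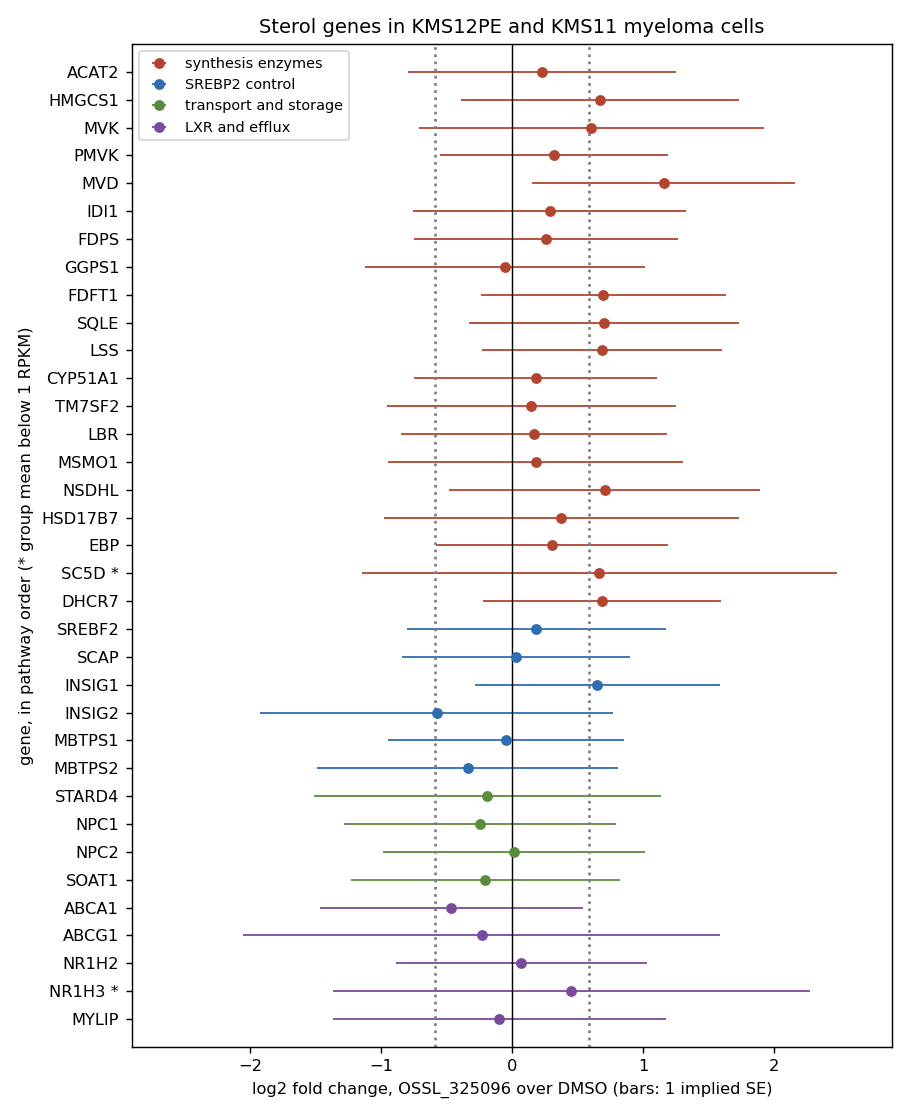
The horizontal axis gives the log2 fold change, OSSL_325096 over DMSO, of all 35 members in pathway order, coloured by role, with bars of 1 implied SE and dotted lines at 1.5-fold in each direction. MVD, at 1.16, stands to the right of all others, and the bars of all members but MVD cross 0.

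**Figure D2:**
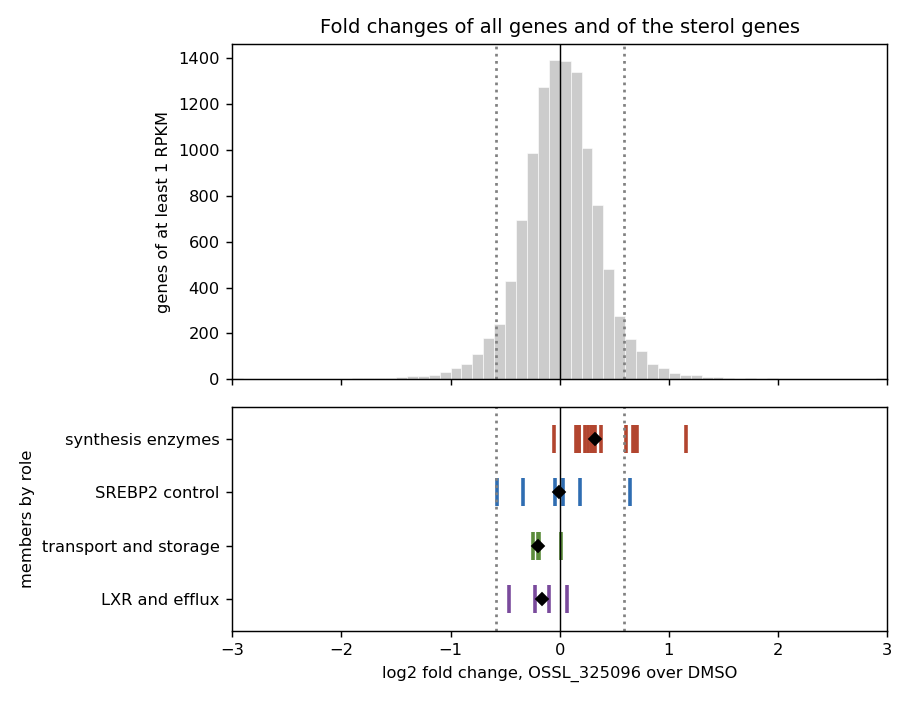
Number of genes by log2 fold change for the 11324 genes of at least 1 RPKM (upper panel, values beyond 3 placed in the end bins) and the 33 members by role (lower panel, 1 tick per gene, diamonds for medians). The median of the synthesis enzymes is at 0.32, and those of the transport and of the export genes are below 0.

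The mevalonate arm had all 7 of its measured genes above 0, against 51% of all genes, with a median log2 fold change of 0.32. MVD encodes the enzyme that decarboxylates mevalonate diphosphate (chromosome 16, 88718343 to 88729569 on hg19, minus strand). Its level was 2.23-fold higher (log2 1.16) at 10.0 RPKM in the authors' deposited table (implied SE 1.00). This was above 99.4% of all 11324 genes, and the 95% interval from the implied SE ran from -0.81 to 3.12. HMGCS1, the synthase that makes HMG-CoA (chromosome 5, 43289497 to 43313614), was 1.59-fold higher at 7.72 RPKM in the authors' deposited table (implied SE 1.06). MVK, which phosphorylates mevalonate (chromosome 12, 110011060 to 110035067), was 1.52-fold higher at 2.54 RPKM in the authors' deposited table (implied SE 1.32). It was the member nearest above the 1.5-fold line. These 3 were the members of the arm past that line, against 4.95% of all genes.

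The other 4 genes of the arm lay closer to 0, although 2 of them had the highest levels of all members. PMVK, which adds the second phosphate to mevalonate, had a log2 fold change of 0.32 at 124 RPKM in the authors' deposited table. FDPS, which joins isoprene units to farnesyl diphosphate, had 0.26 at 128 RPKM in the authors' deposited table. IDI1, the isomerase of isopentenyl diphosphate, had 0.29 at 9.92 RPKM, and ACAT2, which condenses acetyl-CoA, had 0.23 at 10.1 RPKM in the authors' deposited table. GGPS1 leads away from cholesterol to the lipid anchor geranylgeranyl, and it was the one measured enzyme below 0, with a log2 fold change of -0.05 at 6.52 RPKM in the authors' deposited table.

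The enzymes from farnesyl diphosphate to lanosterol had nearly the same fold change in the values as deposited. FDFT1 (squalene synthase) was 1.62-fold higher, SQLE (squalene epoxidase) 1.63-fold higher and LSS (lanosterol synthase) 1.61-fold higher in the authors' deposited table. Their log2 fold changes of 0.70, 0.70 and 0.69 spanned less than 0.1 while their implied SEs were 0.93, 1.03 and 0.91. After removal of a trend with GC content, length and level, FDFT1, SQLE and LSS had 0.69, 0.85 and 0.48. Their levels were 18.5, 17.7 and 29.4 RPKM in the authors' deposited table. SQLE uses molecular oxygen and is known as a point of control of the pathway.

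After lanosterol, all 8 measured enzymes were above 0, against 51% of all genes, with a median log2 fold change of 0.24. At least 1.5-fold higher were 2 of them, against 4.95% of all genes. After removal of the trend, 7 of the 8 were above 0, against 50.2% of all genes. Past 1.5-fold was then 1 of them, against 3.43% of all genes. NSDHL, which removes the carboxylated C4 group (chromosome X, 151999511 to 152038273), was 1.63-fold higher at 14.9 RPKM in the authors' deposited table (implied SE 1.19). DHCR7, which reduces 7-dehydrocholesterol to cholesterol (chromosome 11, 71139239 to 71163914), was 1.61-fold higher at 34.3 RPKM in the authors' deposited table (implied SE 0.91). The partners of NSDHL in the removal of C4 methyl groups had lower values, with a log2 fold change of 0.18 for MSMO1 and 0.38 for the ketoreductase gene HSD17B7 in the authors' deposited table. CYP51A1, the lanosterol demethylase, had 0.18 at 18.7 RPKM, and EBP, the isomerase of the sterol ring, had 0.30 at 45.0 RPKM in the authors' deposited table. TM7SF2 and LBR both encode sterol C14 reductases, and LBR also anchors chromatin at the nuclear envelope. They had log2 fold changes of 0.15 and 0.17, at 25.2 and 49.6 RPKM in the authors' deposited table. SC5D, the C5 desaturase, was below the minimum, at 0.882 RPKM, and was listed 1.58-fold higher in the authors' deposited table (implied SE 1.81).

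Of the genes that control SREBP2, 3 of 6 were above 0, against 51% of all genes. Their median log2 fold change was -0.0094, and that of all genes 0.0087. The widest gap was between the INSIG genes. INSIG1 (chromosome 7, 155089486 to 155101945), which is itself a known target of SREBP2, was 1.57-fold higher at 28.5 RPKM in the authors' deposited table (implied SE 0.93). INSIG2 (chromosome 2, 118846028 to 118868573), whose RNA is known to depend less on SREBP2, was 1.49-fold lower at 3.51 RPKM in the authors' deposited table (implied SE 1.35). The difference of their log2 fold changes was 1.22 with an SE of 1.64, taken as if their errors were independent, and its 95% interval of -1.99 to 4.44 held 0. In the values as deposited, INSIG2 was the lowest of the 33 members and the nearest to the line of 1.5-fold lower. SREBF2 had a log2 fold change of 0.18 at 37.9 RPKM, and SCAP had 0.03 at 16.6 RPKM in the authors' deposited table. MBTPS1 and MBTPS2 encode the site-1 and site-2 proteases that release SREBP2, and they had -0.05 and -0.34, at 12.3 and 2.74 RPKM in the authors' deposited table.

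Genes that carry cholesterol within the cell were near or below 0, with a median log2 fold change of -0.20. Above 0 was 1 of 4, against 51% of all genes. NPC1 and NPC2 pass cholesterol out of lysosomes, NPC1 in the membrane and NPC2 in the lumen. They had log2 fold changes of -0.24 at 5.68 RPKM and 0.01 at 18.1 RPKM in the authors' deposited table. STARD4, a cytosolic sterol carrier and a known SREBP2 target, had -0.19 at 2.63 RPKM in the authors' deposited table (implied SE 1.32). SOAT1, which esterifies cholesterol for storage, had -0.20 at 8.88 RPKM in the authors' deposited table. None of the 4 was 1.5-fold from equality, against 4.95% of all genes higher and 4.95% lower. After removal of a trend with GC content, length and level, 2 of the 4 were above 0, against 50.2% of all genes. The median was then -0.034.

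The LXR and export genes had 1 of 4 measured members above 0, against 51% of all genes, and a median log2 fold change of -0.16. The 3 known LXR targets among them were all below 0. ABCA1, which loads cholesterol onto apolipoproteins (chromosome 9, 107543283 to 107690518), was 1.38-fold lower at 4.70 RPKM in the authors' deposited table (implied SE 1.01). ABCG1, which exports cholesterol to lipoprotein particles, had a log2 fold change of -0.23 at 4.77 RPKM in the authors' deposited table. Its implied SE of 1.82 was the largest of the measured members. MYLIP encodes a ubiquitin ligase that removes lipoprotein receptors, and it had -0.10 at 5.30 RPKM in the authors' deposited table. NR1H2, the gene of LXR beta, had 0.07 at 21.7 RPKM in the authors' deposited table. NR1H3, the gene of LXR alpha, was below the minimum at 0.916 RPKM and was listed 1.37-fold higher in the authors' deposited table (implied SE 1.82).

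Levels of the 35 genes differed far more than their fold changes. RPKM is scaled to transcript length, so that genes can be set side by side on it. The higher group mean ran from 2.54 RPKM for MVK to 128 RPKM for FDPS among the 33 measured members, with a median of 12.3 RPKM in the authors' deposited table, against a median of 6.76 RPKM for all 11324 genes. The synthesis enzymes had a median of 17.7 RPKM, the control genes 14.5 RPKM, the transport genes 7.28 RPKM and the export genes 5.04 RPKM. Within the mevalonate arm, the kinase genes MVK and PMVK, which act in sequence, were at 2.54 and 124 RPKM in the authors' deposited table.

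**Figure D3:**
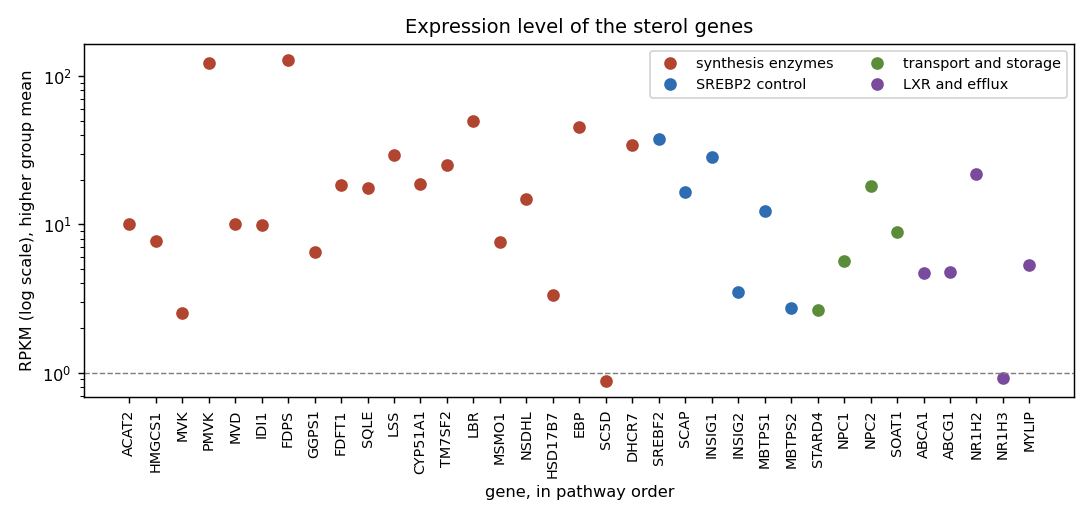
Higher group mean in RPKM on a log axis for all 35 members in pathway order, coloured by role, with a dashed line at 1 RPKM. PMVK and FDPS stand above 100 RPKM, and SC5D and NR1H3 lie just below the line.

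Fold changes in this table followed the GC content of the transcripts, and the members lay between low and high values of it. The median GC content of the 33 measured members was 48.5%, between 36.7% for INSIG2 and 63.9% for MVD, and that of all genes was 50.2%. The fifth of all genes with the lowest GC content had a median log2 fold change of -0.17 and held 11 members, and the fifth with the highest had 0.23 and held 4. MVD and INSIG2, the highest and the lowest member as deposited, are thus also the members with the highest and the lowest GC content. The values were computed again after removing a smooth trend with GC content, length and level fitted over all genes, which takes these 3 properties out together. MVD then had a log2 fold change of 0.91 and INSIG2 had -0.34. ABCA1, at -0.43, was then the lowest member. SQLE, at a GC content of 40.8%, had 0.85 in place of 0.70, and HMGCS1, at 41.8%, had 0.82 in place of 0.67. The difference between INSIG1 and INSIG2 was 1.04.

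With the trend removed, 22 of 33 members were above 0, against 50.2% of all genes. At least 1.5-fold higher were 6 members, against 3.43% of all genes, namely HMGCS1, MVD, FDFT1, SQLE, NSDHL and INSIG1. LSS, DHCR7 and MVK, with 0.48, 0.48 and 0.45, were no longer past 1.5-fold. The median of the synthesis enzymes was 0.42 after removal and 0.32 before it. All 4 measured LXR and export genes were below 0 after removal, with a median of -0.26. Signs turned for GGPS1 and STARD4, which came to lie above 0, and for TM7SF2, SCAP and NR1H2, which came to lie below it.

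**Figure D4:**
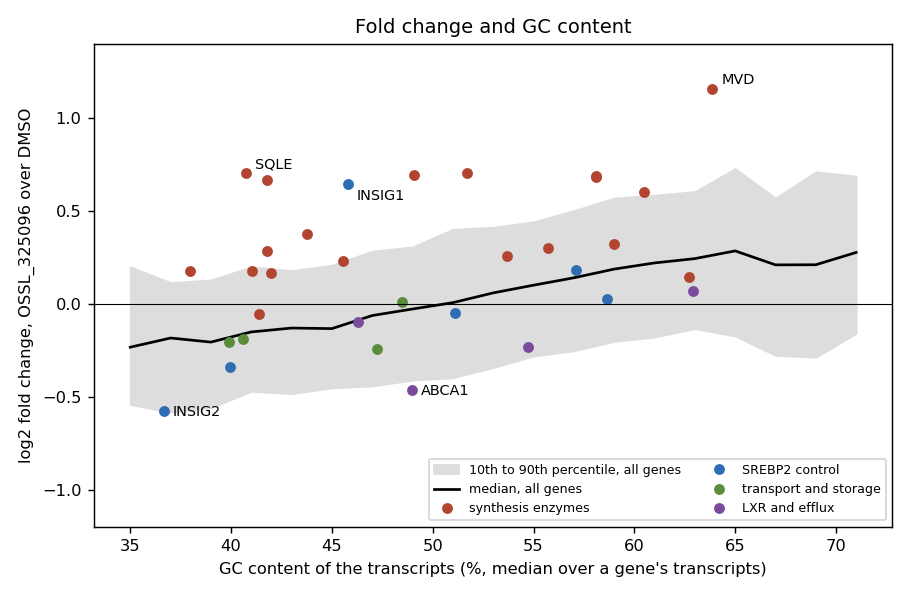
Log2 fold change of OSSL_325096 over DMSO against the GC content of the transcripts in percent, for the 33 measured members (points, coloured by role) over the median (line) and the 10th to 90th percentile (grey) of all genes in bins of GC content. SQLE and INSIG1 lie above the grey band at low GC content, and ABCA1 lies just below it at middle GC content.

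**Figure D5:**
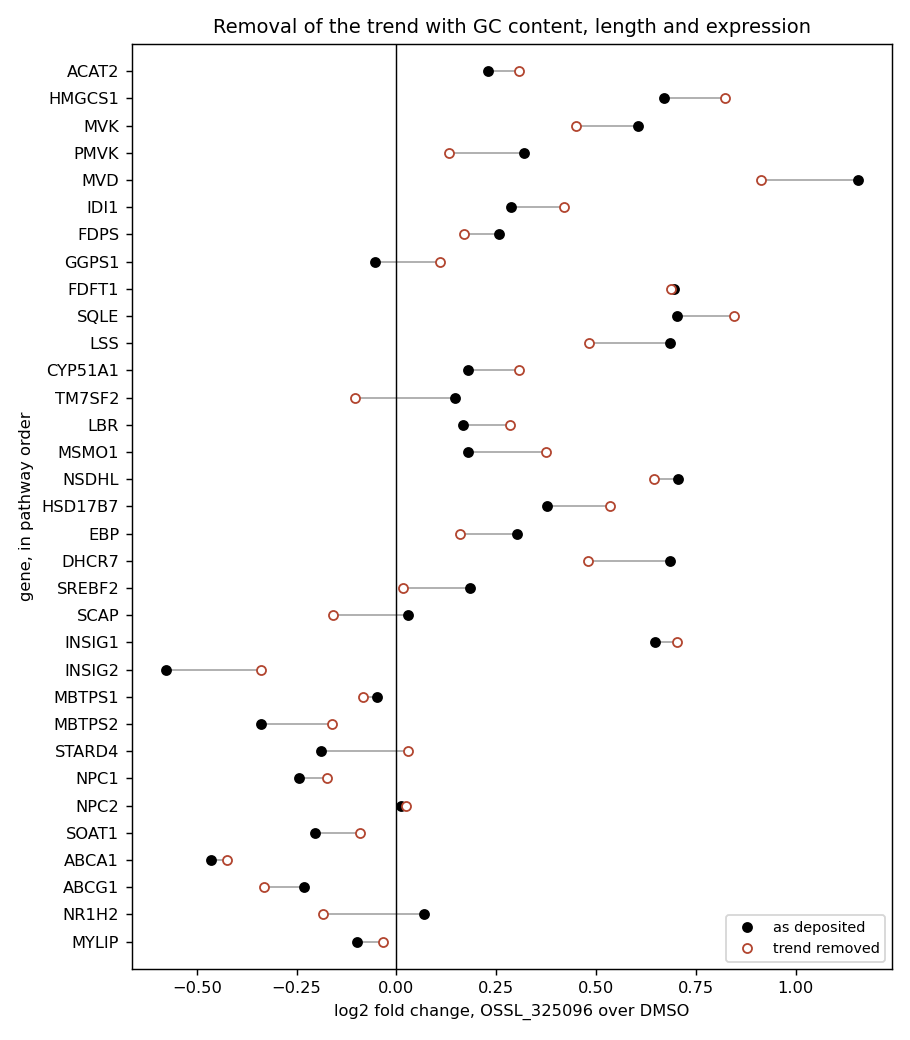
Log2 fold change of each of the 33 measured members as deposited (black) and after removal of that trend (open red). MVD is at 1.16 as deposited and 0.91 after removal, and HMGCS1 is at 0.67 as deposited and 0.82 after removal.

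Some members share their locus with other expressed genes, and the sources used here do not tell whether reads were counted by strand. MVK shares 620 bases with MMAB on the opposite strand, a gene of vitamin B12 metabolism that had a log2 fold change of 0.61 at 6.13 RPKM in the authors' deposited table. ACAT2 shares 615 bases with TCP1, a chaperonin gene at 46.8 RPKM with 0.32, and 2202 bases with SOD2 in the authors' deposited table. DHCR7 shares 3484 bases with the transcript RP11-660L16.2, which had 0.53 at 5.70 RPKM in the authors' deposited table. NPC1 overlaps C18orf8 over 25599 bases, and C18orf8 had -0.05 at 5.24 RPKM in the authors' deposited table. The pseudogene HSD17B7P2, a close copy of HSD17B7, was listed at 0.872 RPKM with 0.25 in the authors' deposited table. Overlaps with other genes of at least 1 RPKM were also found for FDPS, GGPS1, TM7SF2, SREBF2, NPC2, NR1H2 and NR1H3. Shared bases were counted from gene start to gene end, introns included. Shared or copied sequence may make the values of these members less certain, which was not tested.

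Other genes around sterols were described from lists of the surrounding steps. In each of these lists 0 genes were under 0.05 by the authors' p-values, whether adjusted by Benjamini-Hochberg over all genes or unadjusted. In the list of sterol sensing and protein degradation in the endoplasmic reticulum, 8 of 15 measured genes were above 0, against 51% of all genes. Their median log2 fold change was 0.04. Of these 15, 0 were 1.5-fold away in either direction, against 4.95% of all genes higher and 4.95% lower. The ubiquitin ligase gene RNF139 had -0.46 and FAF2, a factor that helps draw proteins out of the membrane, had -0.37 in the authors' deposited table. TMEM97, a sterol-regulated membrane protein that binds NPC1, had 0.24 in the authors' deposited table.

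In the list of sterol transport and lysosomal release, 6 of 18 measured genes were above 0, against 51% of all genes. Their median log2 fold change was -0.18. Of these 18, 0 were 1.5-fold away in either direction, against 4.95% of all genes higher and 4.95% lower. The oxysterol-binding protein family members OSBPL9 and OSBPL1A had -0.45 and -0.34, and SCP2, the sterol carrier protein, had -0.34 in the authors' deposited table. GRAMD1A, which moves cholesterol from the plasma membrane to the endoplasmic reticulum, had 0.37 in the authors' deposited table. With the trend removed, the list's median was -0.11.

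Of the lipoprotein receptors and their adaptors, 8 of 9 measured genes were above 0, against 51% of all genes. Their median log2 fold change was 0.21, and 2 were at least 1.5-fold higher, against 4.95% of all genes. SCARB1, a receptor for high-density lipoprotein, was 1.56-fold higher at 14.7 RPKM (implied SE 0.85), and LRP8, a receptor for apolipoprotein E, had a log2 fold change of 0.59 at 8.23 RPKM in the authors' deposited table (implied SE 0.98). LRP10 had a log2 fold change of 0.27, and SORT1, a sorting receptor, had -0.34 in the authors' deposited table. With the trend removed, the list's median was 0.041 and 0 genes were 1.5-fold higher, against 3.43% of all genes.

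Among partners of LXR, its further targets and enzymes of oxysterols, 10 of 13 measured genes were above 0, against 51% of all genes. Their median log2 fold change was 0.16. Where 4.95% of all genes were at least 1.5-fold higher, 1 gene of the list was. This was ABCA2, a lipid transporter of endosomes and lysosomes, at 1.52-fold higher in the authors' deposited table (implied SE 0.95). ABCA3, a phospholipid transporter, had 0.35 in the authors' deposited table. SREBF1, the gene of SREBP1 and a known LXR target, had 0.18 at 36.4 RPKM in the authors' deposited table, and it is named here after its value was seen. With the trend removed, the list's median was 0.066 and 0 genes were 1.5-fold higher, against 3.43% of all genes.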

How the data were processed

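RNA from 4 libraries was sequenced, and groups were taken from the labels. Per the series' design text, reads were mapped to hg19, and Biomedical Genomics Workbench 5 gave the RPKM values and compared the treatments. The sources used here do not give the test, scaling, annotation or counting rule. Per the file headers, the RPKM column holds the higher of the 2 group means. The authors deposited the log2 fold change, and the same fold again as a signed score. The deposited p-value columns are unadjusted, false discovery rate (0.999995 for each of the 23130 genes that have one) and Bonferroni values. Single libraries were not analysed here, so these values took the place of a fit, and no replicate spread is given.

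Members and lists were chosen with earlier results of these data known. The authors' p-values were adjusted by the Benjamini-Hochberg method over the 11324 genes of at least 1 RPKM. The implied SE is the size of the log2 fold change over the normal quantile that matches its p-value. GC content and length were medians of the gene's GENCODE 44 transcripts (98.1% of those genes), and their trend, with expression, was removed by regression with terms up to degree 3. The trend explained 15.8% of the variance. All 35 members overlapped their GENCODE entry on the same chromosome and strand, and all were protein-coding. All members are given; of 6 other lists (102 genes, 87 of at least 1 RPKM), up to 4 members with the largest absolute fold change are named, and some of these are not reported here. Promoters are those with TCACNCCA and the 2 lowest without it, outside chromosome 8, and MVD. Alternatives were no minimum or 5 RPKM, centring on the median of all genes, and trend removal. Python 3.11.15, pandas 2.3.3, numpy 2.4.6 and scipy 1.17.1 were used.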

Additional observations from a re-analysis of the deposited data

How the results depend on the processing

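No paired analysis was possible because the deposited values cover both lines together and no values of single libraries were analysed here. For the same reason the planned fits without each line, with the line as a replicate block and with other pseudocounts were not run. Depth is unknown, so no counting limit is given. With no minimum on RPKM and with centring on the median of all genes, each member that could be computed kept its direction and stayed short of the adjusted threshold. Each count stayed within 1.5 times its value and each median within 0.1. These settings could hardly change a single member, as no minimum leaves its fold change as deposited and centring lowers it by 0.0087. A minimum of 5 RPKM left 26 members. Without INSIG2 and MBTPS2 the median of the SREBP2 control genes turned to 0.11, and without ABCA1 and ABCG1 that of the LXR and export genes moved to -0.014. With the trend of GC content, transcript length and level removed, 28 of 33 members kept their direction. The exceptions were GGPS1 at 0.11, STARD4 at 0.029, TM7SF2 at -0.10, SCAP at -0.16 and NR1H2 at -0.18. The medians moved to -0.12 for the control genes and -0.034 for the transport genes. The count of members with a sterol element in the promoter was 13 with CACNCCA in place of TCACNCCA, where it was 3, by construction of the shorter motif.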

Other observations

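Farnesyl diphosphate also feeds protein prenylation, dolichol and coenzyme Q. Of 14 measured genes of these branches, 9 had a log2 fold change above 0, where 51% of all genes did. Their median was 0.15, and 1 was at least 1.5-fold higher, against 4.95% of all genes. DOLK, which phosphorylates dolichol for protein glycosylation, was 1.71-fold higher at 12.5 RPKM in the authors' deposited table (implied SE 1.12). PDSS1, which builds the side chain of coenzyme Q, had 0.45, RABGGTB, a subunit of the enzyme that prenylates Rab proteins, had 0.45, and FNTB, the beta subunit of farnesyltransferase, had 0.42 in the authors' deposited table. With the trend removed, the median was 0.11. At least 1.5-fold higher were then 2 genes, DOLK at 0.62 and RABGGTB at 0.62, against 3.43% of all genes.

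Genes that supply acetyl-CoA and NADPH to lipid synthesis had 10 of 18 measured members above 0, against 51% of all genes. Their median log2 fold change was 0.013. Of the 18, 0 were at least 1.5-fold higher and 1 was at least 1.5-fold lower, against 4.95% of all genes in each direction. IDH1, the cytosolic isocitrate dehydrogenase that makes NADPH, was 1.53-fold lower at 16.9 RPKM in the authors' deposited table (implied SE 0.92). After trend removal it had -0.51, short of 1.5-fold lower. SLC25A1, the mitochondrial citrate carrier, had 0.36, ME1, the malic enzyme, had -0.31, and CYB5A, a cytochrome b5 that passes electrons to sterol enzymes, had -0.42 in the authors' deposited table (implied SE 1.86). With the trend removed, 5 of the 18 were above 0, against 50.2% of all genes, and the median was -0.11. In both groups of genes, 0 were under 0.05 by the authors' p-values, with Benjamini-Hochberg adjustment or without.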
